A study of Mus musculus with 15 samples.

Results

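The comparison concerns mouse olfactory bulbs in which CRHR1-expressing granule cells carried a constitutively active form of the CRH receptor CRHR1, set against bulbs in which the same class of cells carried GFP. The arrays were taken by their titles, 5 for the active receptor and 5 for the control, which makes 10 of the 15 samples in the study. Both groups were C57Bl/6 males of 6 to 8 weeks that carried CRHR1-Cre. Each animal received 500 nL of a Cre-dependent (flex) adeno-associated virus, AAV-flex-(CA)CRHR1 in the active CRHR1 group and AAV-flex-GFP in the Cre GFP group, and total bulb RNA was taken 2 weeks later. Expression of the transgene therefore depended on Cre in CRHR1+ cells, while the RNA came from every cell of the bulb. The labels class the Cre GFP animals as a pseudo-wild type for CRH signalling and the active CRHR1 animals as high. The other 5 samples, CRHR1-/- mice of the strain 129S4/SvJae given the GFP virus, entered the filter on dim probes and the estimate of the spread. The labels count 5 animals per group and mention no pooling, and they give no measure of how many cells were infected.

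Levels are log2 processed signals minus the 75th percentile of the array, so that a level of 0 is the 75th percentile. A change is the mean level in the active CRHR1 group minus that in the Cre GFP group, given with its SE, and a gene is called when the Benjamini-Hochberg adjusted p of limma is under 0.05 over the 27432 genes tested. Cre GFP arrays 1 to 3 lay on slide 1, and Cre GFP arrays 4 and 5 shared slide 2 with the 5 active CRHR1 arrays, and a fit with slide as a block therefore rests on Cre GFP arrays 4 and 5 alone. A call is described as stable where it was also made with slide as a block, with arrays centred on their median, and in each of the 10 fits that left out 1 array of these groups. Arrays had 58.7% to 66.9% of probes well above background and correlated with their own group at 0.988 to 0.995. The bulb markers Gad1, Meis2, Pcp4 and Th were well above background on all 10 arrays.

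CRHR1 is a receptor that couples through Gs to adenylyl cyclase, so that its ligands CRH and urocortin raise cAMP, and protein kinase A and CREB act downstream. Granule cells are the most numerous inhibitory interneurons of the olfactory bulb, are added throughout life, and form dendrodendritic synapses with mitral and tufted cells. Interferons act through JAK kinases and STAT and IRF transcription factors on genes for antiviral proteins and for antigen presentation, which in the brain are switched on mainly in microglia and other immune cells, astrocytes and endothelium.

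The transgene could not be read from the Crhr1 probes. Crhr1 read 3.86, 3.79, 3.52, 3.52 and 3.48 on Cre GFP arrays 1 to 5 and 3.62, 3.81, 3.57, 3.79 and 3.83 on active CRHR1 arrays 1 to 5. The groups overlapped, and the change was 0.09 ± 0.09 (adjusted p = 0.544, 95% interval -0.11 to 0.29). A second probe gave 0.08, and with median-centred arrays the change was -0.0061. Where these probes (the brighter at chromosome 11, 104036691 to 104036750, mm9) lie relative to the sequence in the virus is not known here, so these values do not check the label. Crh, the ligand, read 2.02, 2.03, 2.67, 2.57 and 2.87 on Cre GFP arrays 1 to 5 and 1.34, 1.79, 1.54, 1.53 and 1.72 on active CRHR1 arrays 1 to 5. All 5 active arrays were below all 5 control arrays, and Crh fell by 0.85 ± 0.18 (adjusted p = 0.0098), a stable call. The binding protein gene Crhbp changed by 0.10 ± 0.14 (adjusted p = 0.665) and the second receptor gene Crhr2 by -0.02 ± 0.17 (adjusted p = 0.956), and the sign of each turned with slide as a block (-0.08 and 0.26). The urocortin genes Ucn, Ucn2 and Ucn3 were not tested, because their probes were above background on too few arrays.

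In all, 2323 of the 27432 genes (8.47%) were called, 1071 higher (3.9%) and 1252 lower (4.56%) with the active receptor. Rises were large and falls small: 581 genes rose by 2-fold or more (2.12%) and 27 fell by as much (0.0984%), and the median change was 1.096 among called rises and -0.310 among called falls. Of the rises 543 were stable, and of the falls 154. No overlap between the groups was seen for 743 of the called rises and 977 of the called falls, and over all tested genes for 3.3% higher and 7.11% lower. With slide as a block 672 genes were higher (2.45%) and 340 lower (1.24%), and 614 and 285 of these belonged to the 1071 and 1252. Within slide 2 alone, 259 genes were called higher and 70 lower. The 2323 genes had the same sign there. The arrays of that fit had also made the 2323 calls, so the shared sign is not an independent check. Median centring moved the median change of all genes from -0.064 by -0.0975 and gave 715 rises and 555 falls, 56.3% of calls higher against 46.1%. Calls numbered 3621 without Cre GFP array 1, 1442 without Cre GFP array 3, 1227 without Cre GFP array 5, 1184 without active CRHR1 array 1 and 1396 without active CRHR1 array 5. Called falls moved most, to 2100, 633, 620, 757 and 446 without Cre GFP arrays 1 to 5 in turn, and to 447, 717, 787 and 583 without active CRHR1 arrays 1, 3, 4 and 5.

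**Figure D1:**
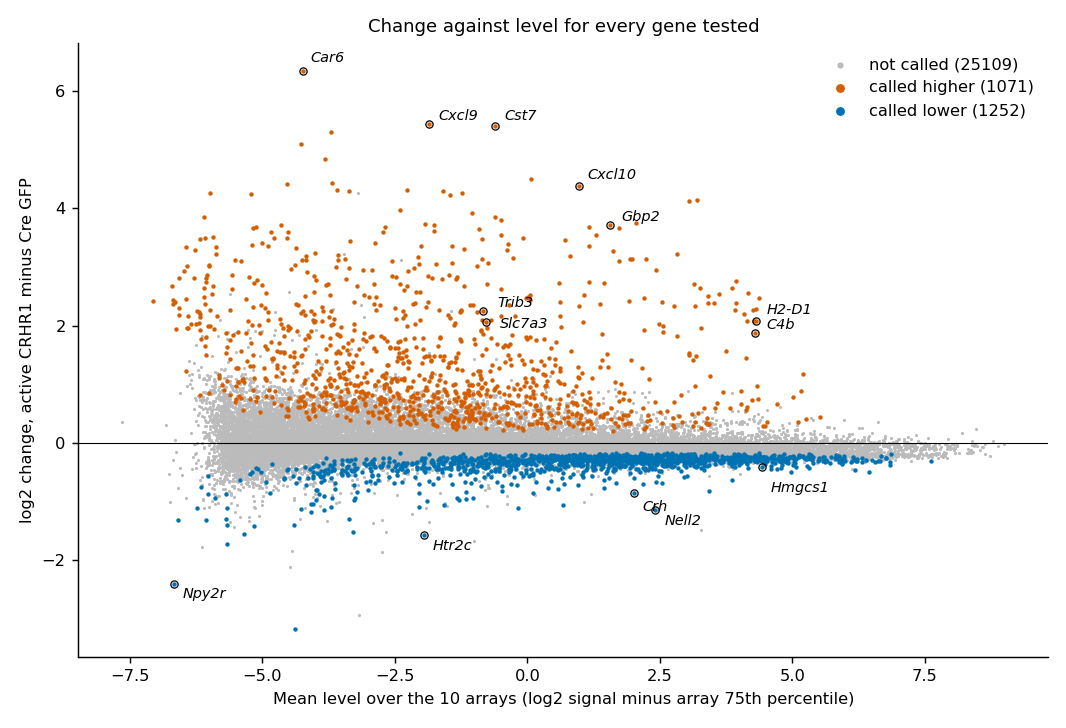
Each point is a gene tested, with its mean level over the 10 arrays on the x axis and its log2 change, active CRHR1 minus Cre GFP, on the y axis. Genes called higher (1071) reach changes above 5, at Car6, Cst7 and Cxcl9, whereas most of the genes called lower (1252) lie just under 0 at high levels.

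The size of the rises differed among the 5 active arrays. Among the 581 genes that rose by 2-fold or more, active CRHR1 array 1 was the highest of its group for 453 (78%) and active CRHR1 array 2 the lowest for 509 (87.6%), against 13.3% and 15.8% over all tested genes. Among the controls, Cre GFP array 2 was the highest for 325 of the 581 (55.9%, against 23.7% over all tested genes). Among the genes called lower, active CRHR1 array 2 was the highest of its group for 507 of 1252 (40.5%, against 30.4% over all tested genes). The number of calls was 2336 without active CRHR1 array 2 and 1550 without Cre GFP array 2, with 649 and 574 rises of 2-fold or more. What set the size of the rises on each array was not tested.

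Of the 63 gene lists, interferon-induced GTPases and other interferon-stimulated genes had the highest medians. Of 21 tested GTPase genes of the interferon-induced GBP, IRG and Mx families, which attack intracellular microbes and viruses, 20 rose and 0 fell, 19 of the calls being stable, and the median change was 3.27 (3.14 with genes below background in the controls at their bound), against -0.064 over all genes. Of 35 other interferon-stimulated genes tested 33 rose and 0 fell, 31 stably, with a median of 2.35. Over all tested genes 3.9% were called higher and 4.56% lower, and the counts of every list stand against these shares. A listed gene could pass the filter through the active group alone, so these counts describe the genes tested and not whole families.

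Igtp, an IRG GTPase of the defence against microbes in vacuoles, read 0.76, 1.60, 1.25, 0.64 and 0.70 on Cre GFP arrays 1 to 5 and 6.32, 3.44, 5.26, 5.07 and 5.51 on active CRHR1 arrays 1 to 5. Isg15, a ubiquitin-like protein joined to other proteins in interferon-treated cells, read 2.16, 2.96, 3.57, 2.11 and 1.96 on Cre GFP arrays 1 to 5 and 6.33, 4.39, 5.12, 5.32 and 5.44 on active CRHR1 arrays 1 to 5. Gbp2 read -0.31, 0.48, -0.11, -0.78 and -0.75 on Cre GFP arrays 1 to 5 and 4.68, 1.81, 3.24, 3.55 and 3.85 on active CRHR1 arrays 1 to 5. In each of these genes active array 1 was the highest and active array 2 the lowest of the active group, and no active array was as low as any control. The changes were 4.13 ± 0.45 for Igtp (adjusted p = 0.000253), 2.77 ± 0.46 for Isg15 (adjusted p = 0.00233) and 3.72 ± 0.46 for Gbp2 (adjusted p = 0.000341). Tgtp1 (4.32, well above background on 2 control arrays), Tgtp2 (4.14), Iigp1 (3.93), Zbp1, a sensor of Z-form nucleic acid (4.22), Oasl2 (3.75), Bst2, which tethers budding virus (3.22), Usp18, which removes Isg15 (3.19), and Mx1 (2.80) rose as well, all stably. The exception among the GTPases was Gbp5, whose brighter probe changed by 0.10 ± 0.10 (adjusted p = 0.54) while its other probe gave 3.52. Near-identical copies are a limit here, since the signals of Tgtp1 with Tgtp2, of C4b with C4a, and of neighbouring Gbp, Oas1, Ifi200, H2-D, H2-Q and Serpina3 genes can come from each other's transcripts.

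The genes that carry the interferon signal were split between those that rose and those that did not. Of 21 tested ligand, receptor and transducer genes 11 rose and 0 fell, 8 stably. Ifng, the gene for interferon gamma, read -6.98, -5.58, -8.13, -7.94 and -8.09 on Cre GFP arrays 1 to 5 and -1.53, -4.77, -3.47, -2.83 and -2.90 on active CRHR1 arrays 1 to 5. It was well above background on 1 control array and on all 5 active arrays, the groups did not overlap, and the change was 4.25 ± 0.62 (adjusted p = 0.000912). Among the transcription factors Irf7 rose by 3.55 ± 0.51 (adjusted p = 0.000849), Irf1 by 2.42 ± 0.34 (adjusted p = 0.000807), Irf8 by 2.07 ± 0.23, Irf9 by 1.93 ± 0.28 and Stat2 by 1.41 ± 0.20. Irf1 read 0.80, 1.14, 0.58, 0.48 and 0.52 on Cre GFP arrays 1 to 5 and 4.21, 1.80, 3.19, 3.17 and 3.24 on active CRHR1 arrays 1 to 5, with active array 2 nearest to the controls. The feedback inhibitor gene Socs1 rose by 1.60 ± 0.26. The receptor genes Ifngr1, Ifngr2, Ifnar1 and Ifnar2 changed by -0.09, -0.0075, 0.02 and 0.20, and the kinase genes Jak1 and Jak2 by -0.13 and -0.09, with no call. The interferon beta gene Ifnb1 was not tested.

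Promoters of some of these genes are shown because members moved together and because the motifs of interferon transcription factors lie in them. Sequences are the 250 bases before the RefSeq start of the gene (build GRCm38.p6), with matches in capitals: the core of the interferon-stimulated response element (ISRE), GAAA repeated after any 2 bases, and the gamma-activated site (GAS), TTCNNNGAA, each searched on both strands. Igtp (chr11:58199306-58199555, plus strand) holds a GAS followed by an ISRE core, Gbp2 (chr3:142620413-142620662, plus strand) an ISRE core on the other strand, Isg15 (chr4:156200819-156201068, minus strand) 3 overlapping ISRE cores, and Irf1 (chr11:53769764-53770013, plus strand) a GAS.
Igtp: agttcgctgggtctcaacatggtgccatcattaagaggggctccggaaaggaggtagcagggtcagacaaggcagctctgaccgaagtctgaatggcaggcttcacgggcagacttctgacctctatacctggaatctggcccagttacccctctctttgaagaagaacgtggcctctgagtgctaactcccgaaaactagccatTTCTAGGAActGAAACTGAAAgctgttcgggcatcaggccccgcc
Gbp2: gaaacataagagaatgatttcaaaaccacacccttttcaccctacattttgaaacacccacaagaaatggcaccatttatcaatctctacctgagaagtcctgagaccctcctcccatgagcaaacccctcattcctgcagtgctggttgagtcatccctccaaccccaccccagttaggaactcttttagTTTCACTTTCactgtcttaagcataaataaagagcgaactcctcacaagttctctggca
Isg15: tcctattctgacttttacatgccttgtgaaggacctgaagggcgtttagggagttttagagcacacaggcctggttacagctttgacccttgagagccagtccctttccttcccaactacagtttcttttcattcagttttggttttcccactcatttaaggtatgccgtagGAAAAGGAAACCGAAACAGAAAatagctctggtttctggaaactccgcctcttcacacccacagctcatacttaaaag
Irf1: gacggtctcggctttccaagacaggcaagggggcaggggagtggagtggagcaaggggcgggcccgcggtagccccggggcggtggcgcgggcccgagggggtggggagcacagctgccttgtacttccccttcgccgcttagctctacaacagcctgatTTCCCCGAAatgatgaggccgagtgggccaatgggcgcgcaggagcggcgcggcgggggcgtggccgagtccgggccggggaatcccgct
In windows of 300 bases around the start, 3.44% of 32851 RefSeq promoters held the ISRE core and 8.3% held the GAS letters. For the GTPases, 11 genes had 12 promoters in the table, of which 10 held the ISRE core (83.3%) and 6 the GAS (50%). For the other interferon-stimulated genes, 25 matched with 30 promoters, 12 of them with the ISRE core (40.0%) and 7 with the GAS (23.3%). For the class I and peptide processing genes, 21 matched with 23 promoters, 5 with the ISRE core (21.7%) and 2 with the GAS (8.7%, close to the share of all promoters). A match is a run of letters and was not tested for binding.

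**Figure D2:**
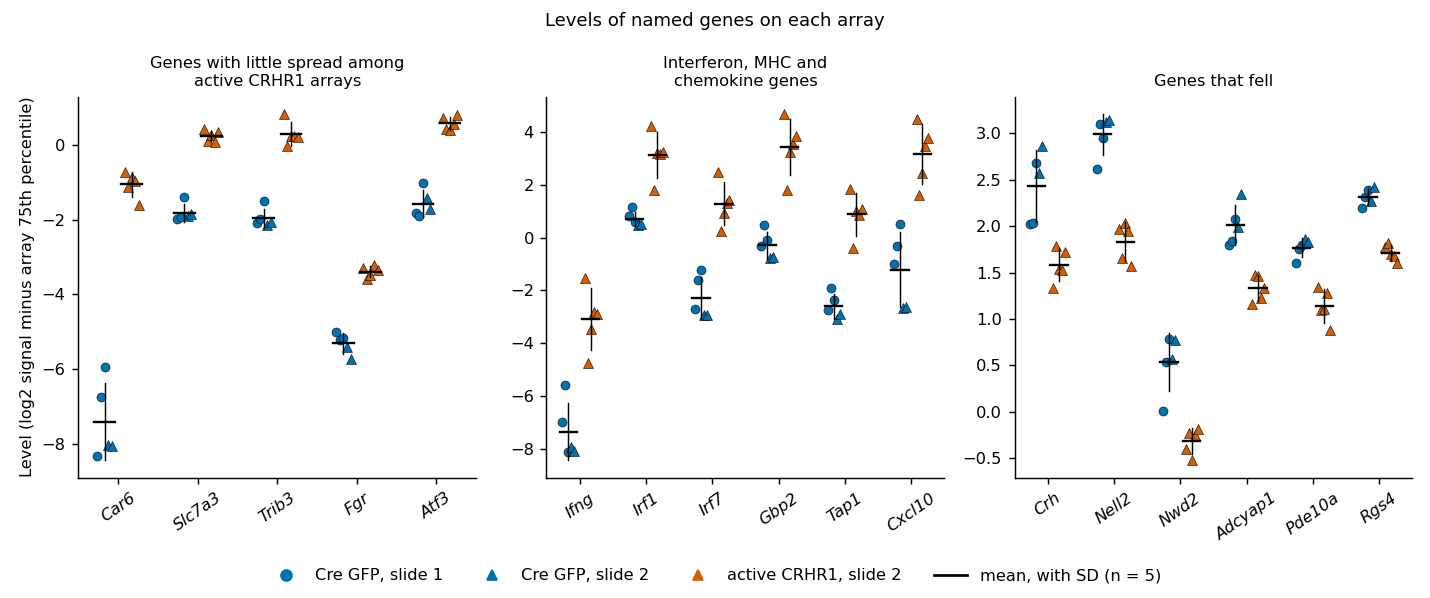
Points are levels (log2 signal minus the array's 75th percentile) of named genes on the 5 Cre GFP (blue) and 5 active CRHR1 (orange) arrays, circles for slide 1 and triangles for slide 2, with the mean and SD as black lines. In the middle panel the active arrays are spread over more than 2 log2 units and array 2 is the lowest, whereas Slc7a3 and Fgr in the left panel span 0.34 and 0.37; the right panel shows genes that fell.

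Genes of antigen presentation rose with the interferon genes. Of 28 class I and peptide processing genes tested 23 rose and 0 fell, 20 stably, with a median of 1.74. Tap1, a chain of the peptide transporter, read -2.73, -1.91, -2.35, -3.10 and -2.91 on Cre GFP arrays 1 to 5 and 1.85, -0.38, 0.99, 0.86 and 1.10 on active CRHR1 arrays 1 to 5. Again array 1 led and array 2 trailed among the active bulbs, without overlap, and the change was 3.48 ± 0.36 (adjusted p = 0.000219). The immunoproteasome genes Psmb9 and Psmb8 rose by 3.66 ± 0.40 and 3.13 ± 0.39, the class I regulator Nlrc5 by 4.26 ± 0.44 (its other probe by 2.08), H2-K1 by 2.56 ± 0.31, H2-D1 by 2.08 ± 0.24 and the light chain gene B2m by 2.20 ± 0.26, all stably. The 31 subunit genes of the constitutive proteasome had 0 rises and 1 fall and a median of -0.146. The general chaperones of class I folding did not pass, with -0.24 for Calr, -0.14 for Canx and -0.18 for Pdia3. Of 14 class II genes tested, which serve presentation to CD4 T cells, 10 rose, all 10 stably, with a median of 1.82. H2-Aa read -0.12, 1.20, -0.91, -0.78 and -0.42 on Cre GFP arrays 1 to 5 and 2.74, 0.61, 3.18, 3.19 and 2.94 on active CRHR1 arrays 1 to 5. Here active array 2 fell within the control range, below Cre GFP array 2, while the other 4 active arrays stood above every control. H2-Aa changed by 2.74 ± 0.50 (adjusted p = 0.0044), Cd74, the invariant chain, by 2.71 ± 0.48 and H2-Oa by 2.83 ± 0.39.

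Microglia genes rose in part. Of 26 tested genes of activated or disease-associated microglia 16 rose and 0 fell, 10 stably, with a median of 0.72. Of 18 genes listed as markers of resting microglia 6 rose and 1 fell, 1 of them stably, with a median of 0.18. The mean level of the activated list ran from 1.11 to 1.50 in the controls and from 1.95 to 2.55 in the active group, and that of the resting list from 1.47 to 1.83 and from 1.68 to 2.01. Cst7, a cysteine protease inhibitor, read -2.78, -2.55, -3.08, -3.96 and -4.23 on Cre GFP arrays 1 to 5 and 2.81, 1.46, 1.23, 2.53 and 2.45 on active CRHR1 arrays 1 to 5. The groups were apart by more than 3 log2 units, and the change was 5.42 ± 0.48 (adjusted p = 9.56e-05). Cd52 (3.15), Itgax (2.82), Lilrb4a (2.26), Ch25h (1.35) and Tyrobp, an adaptor of activating receptors (1.14), rose stably too. Apoe, at a mean level of 8.61 ± 0.12 over the controls and 8.48 ± 0.11 over the active bulbs (SD), changed by -0.12 ± 0.09 (adjusted p = 0.411). In the resting list Aif1, the gene of the Iba1 antigen, rose by 1.89 ± 0.24 (adjusted p = 0.00036), the 1 stable call of that list. Aif1 is not specific to the resting state. The fractalkine receptor gene Cx3cr1 read 3.46, 3.70, 3.25, 3.27 and 3.45 on Cre GFP arrays 1 to 5 and 3.49, 3.42, 3.52, 3.86 and 3.69 on active CRHR1 arrays 1 to 5. These overlapped, with a change of 0.17 ± 0.13 (adjusted p = 0.426), and that of the purine receptor gene P2ry12 was -0.27 ± 0.12 (adjusted p = 0.17). Tmem119 was called (0.48 ± 0.12, adjusted p = 0.0235), but not with slide as a block (adjusted p = 0.107), nor with median centring, nor when Cre GFP array 3, 4 or 5 or active array 1, 3 or 4 was left out (adjusted p up to 0.0592). In bulk tissue, fewer or more cells of a type and less or more RNA per cell cannot be told apart.

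Many effector genes of phagocytes rose, to different extents by group. Of 23 complement genes tested 12 rose and 0 fell, 8 stably, with a median of 0.67. C4b read 3.48, 3.72, 3.33, 3.16 and 3.13 on Cre GFP arrays 1 to 5 and 5.62, 4.76, 5.08, 5.25 and 5.48 on active CRHR1 arrays 1 to 5. No active array reached down to a control, and the change was 1.87 ± 0.17 (adjusted p = 0.000102). The C1q chain genes C1qa, C1qb and C1qc rose by 1.56, 1.49 and 1.48, C3 by 3.50 ± 0.53 and the alternative pathway gene Cfb by 3.61 ± 0.49, whereas the regulator genes Cd55 and Cd59a changed by -0.22 and -0.24 with no call. Of 12 Fc receptor and phagocyte oxidase genes 11 rose, 10 stably (median 1.33), led by Fcgr4 (3.74 ± 0.45) and the oxidase subunit gene Cybb (2.00 ± 0.35, above background on 4 control arrays). Of 31 toll-like receptor, inflammasome and NF-kB genes 17 rose, 8 stably (median 0.53): Tnf, well above background on 2 control arrays and 5 active arrays, by 3.60 ± 0.48, Il1b, above background on 4 control arrays, by 2.35 ± 0.40, Tlr2 by 1.65 ± 0.24 and the inflammatory caspase gene Casp4 by 2.23 ± 0.37. Of 32 lysosomal genes 12 rose, 5 stably, with a median of 0.16, or 0.06 with median centring. The stable lysosomal rises were the proteases Ctsc (1.76), Ctss (1.45) and Ctsz (0.88), the macrophage protein Cd68 (0.73) and the progranulin gene Grn (0.68).

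Most chemokine ligand genes and some receptor genes rose. Of 25 ligand genes tested 16 rose and 1 fell, 11 of the rises being stable, with a median of 1.37 (0.97 with genes below background in the controls at their bound). Cxcl10, which draws activated T cells through Cxcr3, read -1.01, -0.31, 0.51, -2.67 and -2.64 on Cre GFP arrays 1 to 5 and 4.49, 1.59, 2.45, 3.47 and 3.79 on active CRHR1 arrays 1 to 5. The controls on slide 2 were the lowest of the 10 and the groups did not overlap; the change was 4.38 ± 0.80 (adjusted p = 0.00434). Cxcl9, a ligand of the same receptor, read -5.39, -1.31, -5.35, -5.74 and -5.11 on Cre GFP arrays 1 to 5 and 1.57, -2.07, 1.08, 1.99 and 1.79 on active CRHR1 arrays 1 to 5. Its change was 5.45 ± 1.02 (adjusted p = 0.00508, above background on 4 control arrays), but active array 2 lay below Cre GFP array 2. Ccl2, Ccl7, Ccl8 and Ccl12, which draw monocytes, rose by 3.85, 3.18, 3.81 and 3.46, and Ccl5 by 3.69 ± 0.59. Cxcl13, a ligand for B cells, changed by 5.31 ± 1.23, above background on 2 control arrays, and lost its call when Cre GFP array 5 or active array 1 was left out (adjusted p up to 0.0537). The fall was that of Cxcl14 (-0.43 ± 0.09, adjusted p = 0.00813), a call that the slide block removed (adjusted p = 0.108). Of 13 receptor genes tested 4 rose, 3 stably: Ccr7 (2.48), Cxcr6 (2.03) and Cxcr3 (1.82).

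Genes of lymphocytes and other blood leukocytes rose in part, on the same arrays. Of 19 T cell genes tested 10 rose and 0 fell, 4 stably, with a median of 0.70, and the mean level of the list ran from -2.69 to -1.94 in the controls and from -2.15 to -1.06 in the active group. Cd3d, a chain of the T cell receptor complex, read -4.85, -2.88, -5.77, -5.41 and -5.19 on Cre GFP arrays 1 to 5 and -1.02, -4.38, -1.67, -1.22 and -1.81 on active CRHR1 arrays 1 to 5. Array 2 of each group broke the pattern, so that the groups overlapped, and Cd3d changed by 2.80 ± 0.62 (adjusted p = 0.014, above background on 4 control arrays). Cd3e (0.12), Cd4 (-0.07) and Zap70 (0.19) were not called. Of 12 cytotoxic and natural killer cell genes 9 rose, 5 stably (median 1.58, or 1.25 at the bound), among them Gzmb (3.42 ± 0.70, above background on 1 control and 5 active arrays) and Gzma (2.85 ± 0.57). The mean level of that list ran from -3.60 to -2.61 in the controls and from -2.45 to -0.64 in the active group. Of 8 B cell genes 2 rose (stably Cd79b, 0.88 ± 0.19), of 12 monocyte and border macrophage genes 4 (stably Plac8, 3.30 ± 0.40), and of 10 neutrophil genes and 6 red blood cell genes 0 in limma (0 also at an unadjusted p under 0.05), with medians of 0.39 and -0.23. Of 15 adhesion genes 10 rose, 4 stably: Itgax, Icam1 (1.87), Itgb2 (1.77) and Vcam1, a docking molecule of vessels (0.86). The part of blood cells in the interferon, antigen presentation and chemokine rises was not tested.

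**Figure D3:**
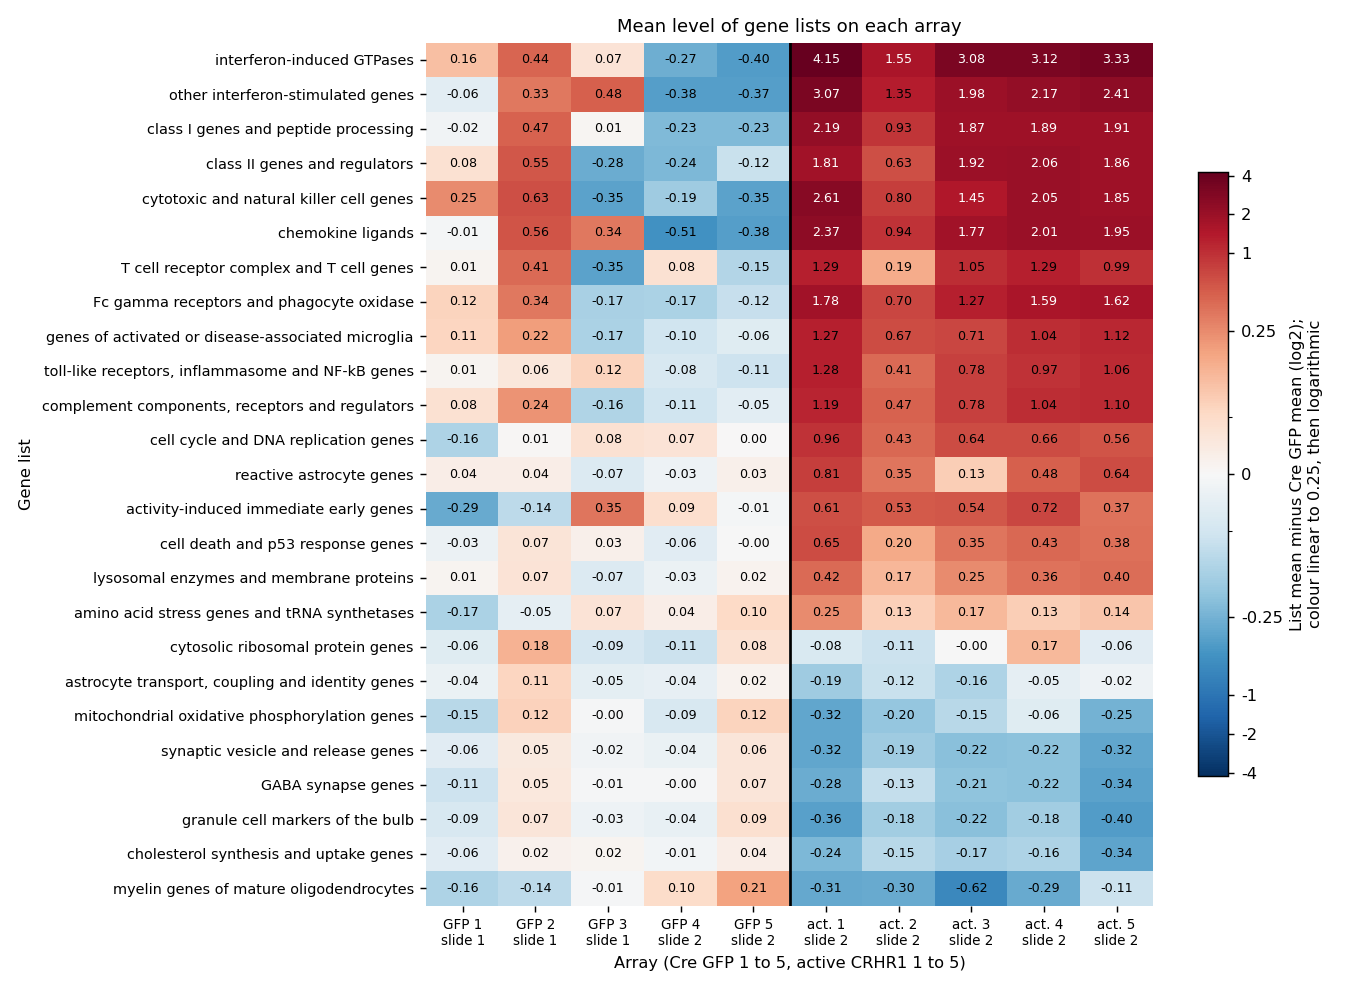
Each cell is the mean level of a gene list on 1 array minus the mean of that list over the 5 Cre GFP arrays (log2). Active CRHR1 array 2 shows smaller shifts than the other active arrays in the interferon, MHC, cytotoxic and T cell rows. The neuronal and myelin rows at the foot are below the control mean on all 5 active arrays. In the myelin row active array 5 (-0.11) lies above Cre GFP arrays 1 and 2 (-0.16 and -0.14).

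Astrocyte genes split by role. Of 21 reactive astrocyte genes 11 rose and 0 fell, but 2 stably, the oncostatin M receptor gene Osmr (1.04 ± 0.15) and Aspg (0.74 ± 0.13). Gfap, the filament protein of reactive astrocytes, read 3.20, 3.62, 3.50, 3.10 and 2.84 on Cre GFP arrays 1 to 5 and 4.50, 4.05, 3.33, 4.09 and 4.61 on active CRHR1 arrays 1 to 5. Active array 3 lay among the controls. The change of 0.87 ± 0.21 (adjusted p = 0.0219) was not called with median centring (adjusted p = 0.0536) or when Cre GFP array 4 or 5 or active array 1 or 5 was left out (adjusted p up to 0.0658). Serpina3n, another reactive marker, changed by 0.86 ± 0.35 (adjusted p = 0.132), while its cluster neighbours Serpina3f and Serpina3g rose by 4.85 ± 0.61 (above background on 1 control array) and 3.72 ± 0.59. Of 18 genes of astrocyte transport, coupling and identity 0 rose and 2 fell, neither stably; the water channel gene Aqp4 changed by 0.20 and the glutamate carrier gene Slc1a3 by -0.18.

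Some myelin genes fell. Of 18 genes of mature oligodendrocytes 6 fell and 0 rose, 2 stably, with a median of -0.25 that lay between -0.39 and -0.19 under the other scalings and the slide block. Mal, a protein of compact myelin, read 3.92, 4.10, 4.09, 4.33 and 4.43 on Cre GFP arrays 1 to 5 and 3.29, 3.67, 3.21, 3.71 and 3.76 on active CRHR1 arrays 1 to 5. The groups did not overlap, and Mal fell by 0.64 ± 0.14 (adjusted p = 0.0126). Gal3st1, which makes the myelin lipid sulfatide, fell by 0.55 ± 0.10 (adjusted p = 0.00537). Mobp fell by 0.82 ± 0.22 (adjusted p = 0.0342), a call lost when Cre GFP array 3, 4 or 5 or active array 1 or 3 was left out (adjusted p up to 0.0954). Mbp, myelin basic protein, changed by -0.23 ± 0.10 (adjusted p = 0.173). Of 11 precursor genes 2 fell and of 14 ensheathing glia genes 1 fell, none of them stably. The shares called lower were 33.3% of myelin, 18.2% of precursor and 7.14% of ensheathing glia genes, against 4.56% of all tested genes. Of 19 endothelial, 14 pericyte and 19 matrix genes 1, 2 and 0 rose in limma and 1, 0 and 0 fell, none stably (of the matrix genes, 1 was lower at an unadjusted p under 0.05), and the tight junction gene Cldn5 changed by 0.07 ± 0.09 (adjusted p = 0.613).

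Some neuronal genes fell by small amounts. Of 24 granule cell markers 7 fell and 0 rose, none stably, although the means of all 24 were lower (61.6% of all tested genes were), with a median of -0.26. Pcp4, a calmodulin regulator of granule cells, read 6.34, 6.60, 6.25, 6.29 and 6.58 on Cre GFP arrays 1 to 5 and 5.74, 6.05, 5.91, 6.09 and 5.91 on active CRHR1 arrays 1 to 5. All active arrays were below all controls, and the change was -0.47 ± 0.12 (adjusted p = 0.0256), a call that the slide block removed (adjusted p = 0.11), with median centring (adjusted p = 0.0539) and when Cre GFP array 2 or 5 or active array 1, 3 or 5 was left out (adjusted p up to 0.0747). Gad1, which makes GABA, changed by -0.09 ± 0.08 (adjusted p = 0.482) and Th, of dopaminergic periglomerular cells, by -0.26 ± 0.11 (adjusted p = 0.159). Of 16 mitral and tufted cell genes 3 fell, stably Tbr1, a transcription factor of these projection neurons (-0.49 ± 0.09, adjusted p = 0.00617). Tbr1 also belongs to the list of cortical and anterior olfactory neuron genes. Of its 10 tested genes 3 fell (30%) and 0 rose, stably Tbr1 alone, with a median of -0.24. Which of these neurons the fall of Tbr1 came from was not tested. Of 15 neuroblast genes 2 fell, and of 14 sensory axon genes 1, none stably. The shares called lower were 29.2% of granule cell, 18.8% of mitral and tufted cell and 13.3% of neuroblast genes. For sensory axon genes the share was 7.14%, near the 4.56% of all tested genes. The list medians of these neuronal classes lay between -0.15 and -0.26, against -0.064 over all tested genes. They stayed below 0 with quantile normalization and normexp correction, where the medians of all genes were -0.053 and -0.062. Median centring lowers every change by the same amount and so could not turn their sign. Medians of this size were not particular to neuronal lists. They were -0.21 for ensheathing glia, -0.20 for oxidative phosphorylation, -0.16 for astrocyte transport, coupling and identity and -0.146 for constitutive proteasome genes. Ribosomal protein and endothelial genes differed, with medians of -0.02 and 0.15.

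Among neuronal genes the stable falls were of single genes. Nell2, a secreted glycoprotein of neurons, read 2.62, 3.10, 2.95, 3.12 and 3.14 on Cre GFP arrays 1 to 5 and 1.97, 1.66, 2.03, 1.95 and 1.57 on active CRHR1 arrays 1 to 5. All active arrays were lower, and Nell2 fell by 1.15 ± 0.11 (adjusted p = 0.000139). Rgs4, which speeds the shut-off of G protein signals, read 2.20, 2.31, 2.39, 2.27 and 2.42 on Cre GFP arrays 1 to 5 and 1.78, 1.82, 1.70, 1.68 and 1.60 on active CRHR1 arrays 1 to 5. Both groups spanned 0.22 log2 units, and Rgs4 fell by 0.60 ± 0.06 (adjusted p = 0.000244), with a second probe at -0.82. Npy2r, a receptor of neuropeptide Y, was at least 1.47-fold lower (adjusted p = 0.000176): it was well above background on 2 control arrays and on 0 active arrays, with measured means of -5.46 ± 0.38 over the controls and -7.88 ± 0.26 over the active bulbs (SD). Nwd2 fell by 0.85 ± 0.13 and Wif1, a secreted Wnt inhibitor, by 1.12 ± 0.18.

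Calls among genes of synapses and ion channels were all falls. Of 23 GABA synapse genes 6 fell, of 31 vesicle and release genes 7, of 29 postsynaptic genes 7, of 22 glutamate receptor genes 3, of 35 potassium channel genes 6 and of 25 sodium and calcium channel genes 2, and 0 rose in these lists, with medians from -0.15 to -0.23. The shares called lower were 26.1%, 22.6%, 24.1%, 13.6%, 17.1% and 8% in that order, against 4.56% of all tested genes. Stable members were Gabra4, a GABA-A receptor subunit (-0.37 ± 0.08), Sv2c, a vesicle protein (-0.63 ± 0.12), the scaffold gene Dlgap1 (-0.39 ± 0.07), Scn2b (-0.30 ± 0.06) and Scn10a (-1.10 ± 0.23). Of 28 monoamine and acetylcholine receptor genes 7 fell and 1 rose, stably the serotonin receptor gene Htr7 (-0.40 ± 0.08). Htr2c fell by 1.58 ± 0.30 (adjusted p = 0.00587), a call that the slide block removed (adjusted p = 0.0631). Of 22 neuropeptide precursor genes 3 fell. Adcyap1, the gene for PACAP, read 1.79, 1.84, 2.08, 1.99 and 2.35 on Cre GFP arrays 1 to 5 and 1.16, 1.47, 1.47, 1.23 and 1.33 on active CRHR1 arrays 1 to 5. The groups did not overlap, and the fall was 0.68 ± 0.11 (adjusted p = 0.00182), stable, whereas those of Grp (-1.41 ± 0.31) and Sst (-0.71 ± 0.16) were not called under the slide block (adjusted p = 0.145 and 0.168).

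**Figure D4:**
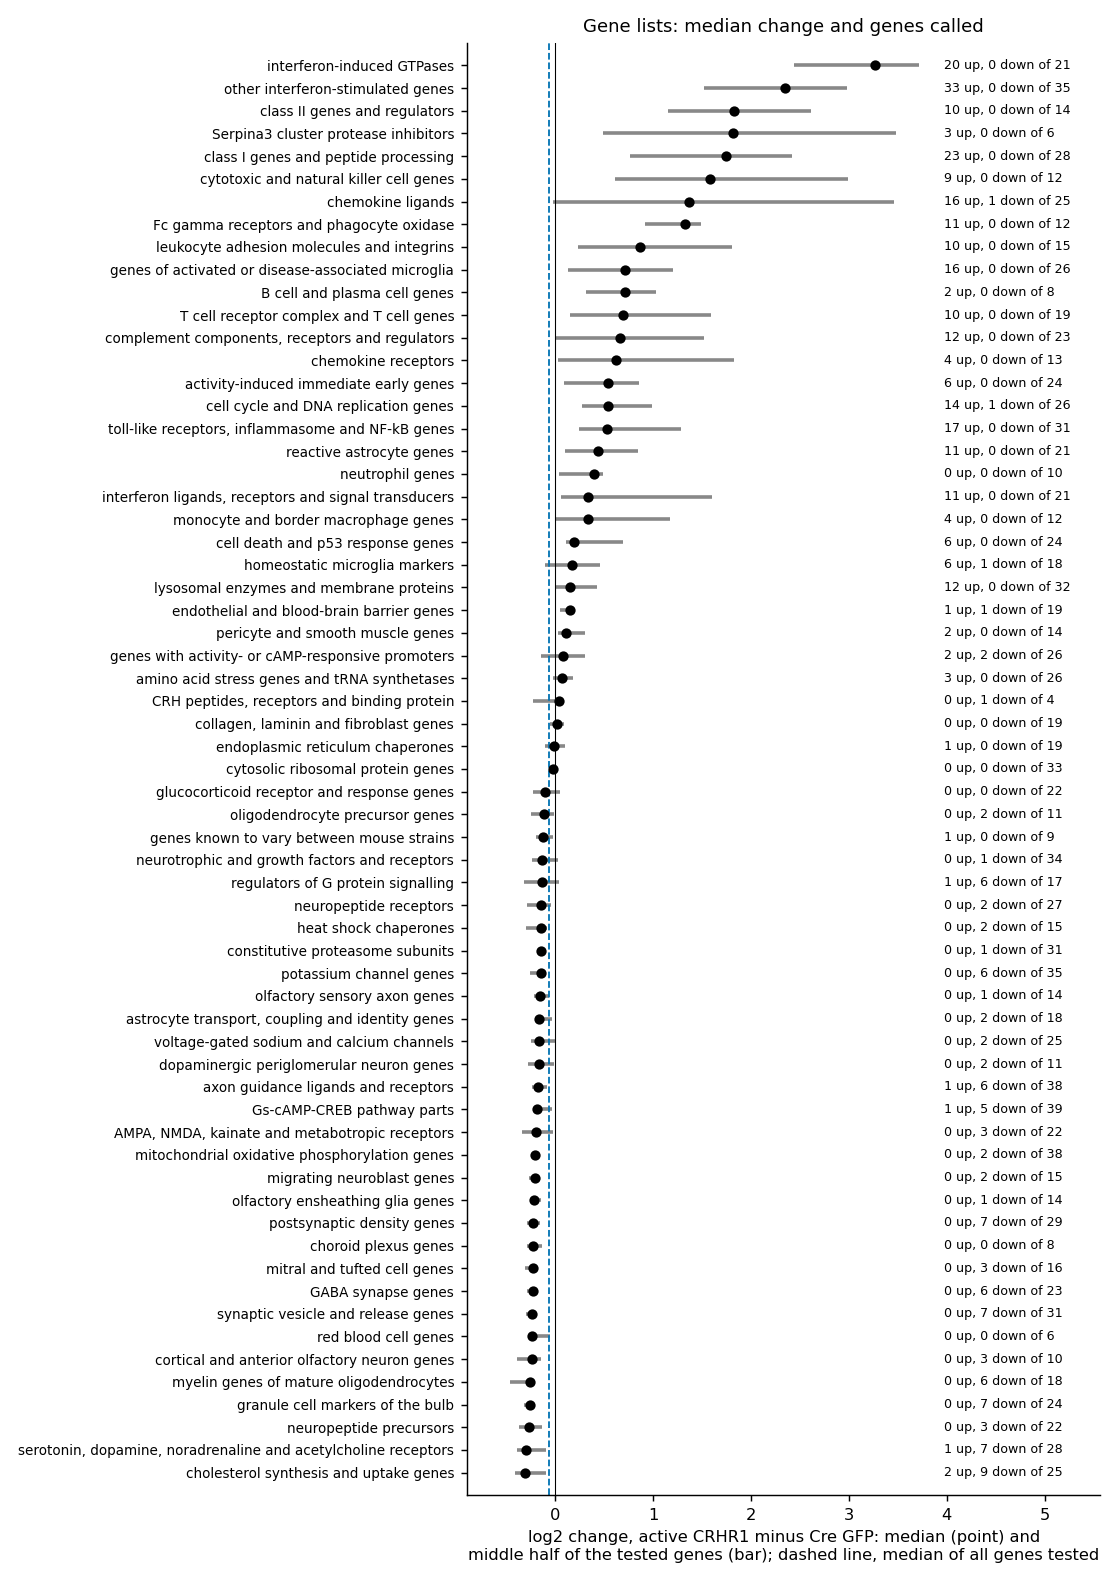
For each of the 63 gene lists the point is the median log2 change (active CRHR1 minus Cre GFP) of its tested genes and the bar spans their middle 50%, with the number called up and down at the right; the dashed line is the median of all genes tested (-0.064). Interferon-induced GTPases (3.27) and other interferon-stimulated genes (2.35) stand at the top, followed by class II, Serpina3 and class I genes, and the cholesterol list stands at the foot (-0.31).

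The pathway that CRHR1 uses was sampled by 39 genes of the Gs, cAMP and CREB cascade. Of these 2.56% were called higher and 12.8% lower, against 3.9% and 4.56% of all tested genes. Adcy7, an adenylyl cyclase abundant in immune cells, rose (0.98 ± 0.15, adjusted p = 0.0012) and 5 genes fell, stably the phosphodiesterase gene Pde10a (-0.63 ± 0.09, adjusted p = 0.00105) and the kinase anchor gene Akap5 (-0.38 ± 0.08, adjusted p = 0.0117). The neuronal cyclase gene Adcy1 fell by 0.46 ± 0.12 (adjusted p = 0.0317), a call lost with the slide block (adjusted p = 0.0969) or when Cre GFP array 2, 3, 4 or 5 or active array 1 or 5 was left out (adjusted p up to 0.0882), and Creb1 changed by -0.31 ± 0.10 (adjusted p = 0.0824). Of 26 genes with activity- or cAMP-responsive promoters 2 rose and 2 fell, 1 stably, Adcyap1, and the sign of the list's median (0.08) turned with median centring (-0.02). Of 24 immediate early genes 6 rose and 0 fell, 1 stably. That gene was Atf3, a transcription factor of stress and injury, which read -1.82, -1.91, -1.03, -1.42 and -1.72 on Cre GFP arrays 1 to 5 and 0.71, 0.41, 0.40, 0.56 and 0.81 on active CRHR1 arrays 1 to 5. The active arrays lay within 0.41 log2 units of each other and clear of the controls, and the change was 2.16 ± 0.27 (adjusted p = 0.000341). Fos read -1.34, -0.87, 0.41, 0.03 and -0.24 on Cre GFP arrays 1 to 5 and 1.14, 0.86, 0.73, 1.09 and 0.34 on active CRHR1 arrays 1 to 5. These groups overlapped, and Fos changed by 1.24 ± 0.41 (adjusted p = 0.0776). Nr4a1 was called (1.18 ± 0.31, adjusted p = 0.0337), but not with slide as a block (adjusted p = 0.175), nor with median centring, nor when Cre GFP array 1, 2 or 5 or active array 1, 2, 3, 4 or 5 was left out (adjusted p up to 0.0772). Of 22 glucocorticoid response genes 0 were called in limma, and at an unadjusted p under 0.05 it gave 1 higher and 4 lower. Fkbp5, a chaperone of the receptor, changed by -0.22 ± 0.08 and Sgk1 by -0.13 ± 0.10.

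A few genes chosen after their values were seen rose by similar amounts in all 5 active bulbs. Car6, a secreted carbonic anhydrase, read -8.32, -6.74, -5.93, -8.02 and -8.05 on Cre GFP arrays 1 to 5 and -0.74, -1.14, -0.86, -0.96 and -1.60 on active CRHR1 arrays 1 to 5. It was well above background on 0 control and 5 active arrays. Against that floor it was at least 31-fold higher with the active receptor. Car6 passed the filter on dim probes only through the active group, where it is high. Its limma adjusted p (1.2e-06) is therefore no separate support for the rise. Slc7a3, a carrier of cationic amino acids, read -1.99, -1.94, -1.41, -1.89 and -1.85 on Cre GFP arrays 1 to 5 and 0.41, 0.11, 0.26, 0.07 and 0.34 on active CRHR1 arrays 1 to 5. It rose by 2.05 ± 0.12 (adjusted p = 1.2e-06). Trib3, a pseudokinase induced by ATF4 and by amino acid shortage, read -2.09, -1.99, -1.51, -2.13 and -2.07 on Cre GFP arrays 1 to 5 and 0.83, -0.02, 0.23, 0.24 and 0.21 on active CRHR1 arrays 1 to 5. Its change was 2.26 ± 0.15 (adjusted p = 3.37e-06). Fgr, a Src-family kinase of myeloid cells, read -4.99, -5.23, -5.16, -5.39 and -5.74 on Cre GFP arrays 1 to 5 and -3.28, -3.59, -3.49, -3.23 and -3.35 on active CRHR1 arrays 1 to 5. It rose by 1.92 ± 0.13 (adjusted p = 3.37e-06, above background on 4 control arrays). The 5 active arrays spanned 0.34 log2 units for Slc7a3, 0.37 for Fgr, 0.41 for Atf3, 0.85 for Trib3 and 0.86 for Car6, against 2.88 for Igtp and 2.89 for Cxcl10. Igtp and Cxcl10 are picked examples of a wide spread, and the complement gene C4b spanned far less than either. Trib3 was highest on active array 1 and lowest on active array 2, as Igtp and Cxcl10 were. The lowest active array was array 5 for Car6, array 4 for Slc7a3, array 3 for Atf3 and array 2 for Trib3 and Fgr, and on array 2 of each group Car6, Slc7a3, Trib3, Fgr and Atf3 were clear of every array of the other group.

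Most of the pathway that Trib3 belongs to was not called. Of 26 amino acid stress and tRNA synthetase genes 3 rose, Trib3, Chac1, which degrades glutathione (0.70 ± 0.12, adjusted p = 0.00239), and Sesn2 (0.47 ± 0.10, adjusted p = 0.0106), the last lost with median centring (adjusted p = 0.108). The list's median was 0.08, or -0.02 with median centring. The transcription factor genes Atf4 and Ddit3 changed by 0.11 and 0.20 and the asparagine synthetase gene Asns by 0.19, with no call. The upstream 250 bases of Chac1 (chr2:119350992-119351241, plus strand, RefSeq, GRCm38.p6) are shown because they hold the letters of an ATF4 element, TGATGCAA, on the other strand (capitals).
Chac1: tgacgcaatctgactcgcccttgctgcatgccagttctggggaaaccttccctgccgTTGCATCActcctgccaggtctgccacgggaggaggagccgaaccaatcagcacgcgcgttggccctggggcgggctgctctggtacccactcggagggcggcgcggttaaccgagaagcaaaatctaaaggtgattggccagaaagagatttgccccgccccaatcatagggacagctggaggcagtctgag
Searched on both strands, that element was present in 3 of 17 promoters found for 14 genes of the list (17.6%) and in 0.895% of all promoters. The promoters of Trib3 and Sesn2 did not hold these letters, and the other genes of the list that did were not called. The endoplasmic reticulum chaperone list had 1 rise of 19 and the heat shock list 2 falls of 15, none stable.

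Cell cycle and cell death genes rose in part. Of 26 cell cycle genes 14 rose and 1 fell, 8 of the rises stably, with a median of 0.54. Top2a, which untangles DNA in dividing cells, read -6.16, -5.44, -4.66, -5.14 and -5.45 on Cre GFP arrays 1 to 5 and -2.39, -3.86, -3.04, -2.93 and -3.34 on active CRHR1 arrays 1 to 5. The groups did not overlap and the change was 2.26 ± 0.28 (adjusted p = 0.000341, above background on 3 control arrays), and the proliferation marker Mki67 rose by 1.49 ± 0.23 (adjusted p = 0.00114). Of 24 cell death and p53 genes 6 rose and 0 fell, all 6 stably: the necroptosis kinase gene Ripk3 (1.38 ± 0.17), Ripk1 (0.64), the death receptor genes Fas (1.15) and Tnfrsf10b (0.92), Casp8 (0.85) and Pmaip1 (1.39). Cdkn1a, Mdm2 and Bax, of the same list, changed by 0.36, 0.10 and 0.17 with no call. The shares called higher were 53.8% of the cell cycle list and 25% of the cell death list, against 3.9% of all tested genes. Whether neurons were lost was not measured.

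Some sterol synthesis genes fell. Of 25 cholesterol genes 9 fell and 2 rose, with a median of -0.31 that stayed between -0.41 and -0.28 under the other scalings and the slide block. Hmgcs1, an early enzyme of the mevalonate pathway, read 4.46, 4.59, 4.71, 4.70 and 4.71 on Cre GFP arrays 1 to 5 and 4.19, 4.27, 4.29, 4.26 and 4.09 on active CRHR1 arrays 1 to 5. All active arrays were lower, and Hmgcs1 fell by 0.41 ± 0.06 (adjusted p = 0.00105). Fdft1, the squalene synthase, fell by 0.45 ± 0.08 (adjusted p = 0.00429); these were the stable falls, and the stable rise was Ch25h, which makes 25-hydroxycholesterol and is itself induced by interferon (1.35 ± 0.22). Of 38 oxidative phosphorylation genes 2 fell and 0 rose, none stably, and all 38 means were lower (median -0.20, or -0.08 with quantile normalization). The shares called lower were 36% of the cholesterol genes and 5.26% of the oxidative phosphorylation genes, against 4.56% of all tested genes. Of 33 ribosomal protein genes 0 were called in limma (0 also at an unadjusted p under 0.05), and the median of -0.02 turned to 0.10 with quantile normalization.

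The 129S4/SvJae knockout bulbs share the control samples and the first slide with this comparison, so their levels stand here as values only. Igtp read 1.12, 0.65, 2.43, 1.37 and 1.94 on the 5 knockout arrays, Car6 -7.93, -7.77, -7.51, -7.91 and -7.84, Slc7a3 -2.07, -1.92, -1.92, -1.90 and -1.63 and Crh 1.82, 1.75, 1.60, 1.51 and 2.25.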

How the data were processed

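Each of the 15 samples is 1 one-colour Agilent mouse array with mm9 probe coordinates, hybridised with Cy3-labelled RNA of a bulb. Per the file headers, the deposited intensities (processed signals) were extracted with Feature Extraction 10.7.3.1, and the deposited files carry other columns that flag spots as outliers, saturated or well above background. The authors' value table holds each intensity divided by its array's median over non-control spots, as a ratio, and was used as an alternative.

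From the intensities, control spots and outlier spots were removed, signals were put on the log2 scale, each array's 75th percentile was subtracted, and replicate spots were averaged per probe. Probes well above background on at least 4 of 5 arrays of any group were kept (33968 of 55681), 27592 probes took current symbols through RefSeq accessions, and the brightest kept probe stood for a gene. Limma 3.58.1 in R 4.3.3 (lmFit, eBayes) fitted 3 groups over 15 arrays, two-sided. On simulated data for this comparison (27411 genes) it recovered 37.3%, 85.1% and 93.9% of log2 changes of 0.5, 1 and 2, with 5.88% of calls false. The simulation drew independent errors, held no slide effect or deviant array, and changed few genes. These shares may therefore not hold for the calls made here. The number of arrays limits the precision. Where 0 arrays of a group were well above background, the fold is a bound, the brighter group's mean against, per array, the higher of the lowest signal well above background and the gene's own.

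The rule for named genes took the CRH family, the 15 smallest p-values and the 10 largest changes in each direction among called genes, up to 6 called genes per list and direction, and list members that define a cell type or family. The comparison and the 63 lists (1326 genes, 1237 tested) were chosen with earlier results of these data known, so no test was run over a list. Alternatives were the scaling, background correction, filter, probe choice, variance model, threshold, arrays in the fit, slide, replicate block and the omission of each array. The titles share replicate numbers, and nothing in them says that these pair animals, so the main fit held no pairs. Correlations of same-numbered deviations lay between -0.2188 and 0.0916. Such correlations cannot exclude a pairing. Some items are not reported here.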

Additional observations from a re-analysis of the deposited data

Results flagged for a closer look

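A group of 5 arrays was searched for a highest or lowest array set apart from the other 4 by more than Dixon's 95% critical value, which chance exceeds in about 1 of 20 groups. Over 173 named genes and 63 lists, 472 groups were searched and 30 exceeded it (6.36%). Many of these genes moved together and some belong to several lists. The groups are therefore not independent, and the share cannot be set against chance. Of the 30, 16 were active CRHR1 array 2, at the low side, and 8 were Cre GFP array 2, at the high side.

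Active CRHR1 array 2 was low in class I genes: it read 4.20 for B2m against 5.31 to 5.55 on the other 4 active arrays, 4.43 for H2-D1 against 5.53 to 5.66, 4.25 for H2-K1 against 5.67 to 5.83 and 2.09 for Psmb9 against 3.75 to 4.37. It was low in class II genes, at 0.61 for H2-Aa against 2.74 to 3.19 and 2.61 for Cd74 against 4.69 to 5.16. In chemokine and leukocyte genes it read -2.07 for Cxcl9 against 1.08 to 1.99, -1.13 for Ccl8 against 1.47 to 2.50, -3.66 for Cxcr6 against -2.003 to -1.76, -4.38 for Cd3d against -1.81 to -1.02, -1.71 for Itgax against -0.16 to 0.07 and -0.72 for Cd37 against -0.29 to -0.13. The cell cycle inhibitor gene Cdkn1a was at 3.50 there against 3.63 to 3.67. As list means, that array stood at 2.07 for class I genes against 3.01 to 3.32, at 9.61e-05 for class II genes against 1.18 to 1.43, and at -2.15 for T cell genes against -1.36 to -1.06.

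Cre GFP array 2 was high for Cxcl9, at -1.31 against -5.74 to -5.11 on the other controls, for Acod1 at -4.95 against -7.53 to -7.07, for Serpina3g at -2.20 against -4.18 to -3.78, for Cxcr3 at -2.74 against -4.36 to -3.97, for B2m at 3.74 against 2.67 to 2.86, for Cd52 at 1.35 against -0.0052 to 0.37, for Vcam1 at 1.37 against 1.27 to 1.29 and for Bax at 2.72 against 2.44 to 2.49.

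Other control arrays stood apart in single genes. Cre GFP array 1 was low for Cdkn1a (2.94 against 3.29 to 3.41) and in the mean of the sensory axon genes (0.32 against 0.76 to 0.93). Cre GFP array 3 was high for Slc7a3 (-1.41 against -1.99 to -1.85) and Trib3 (-1.51 against -2.13 to -1.99), on both counts still below every active array. Cre GFP array 5 was low for Ctsc (-0.92 against -0.71 to -0.64) and Il1b (-6.23 against -5.38 to -5.27).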

How the results depend on the processing

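Against 2323 calls (1071 higher, 1252 lower, 581 and 27 of 2-fold or more), fits with arrays centred on their median gave 1270 calls with 555 lower, the authors' values 1273 (688 higher, 585 lower, 54.0% of calls higher), no filter 1225 (415 lower), slide as a fixed block 1012 (672 higher, 340 lower, 43 of 2-fold lower), slide 2 alone 329 (259 higher, 70 lower, 215 and 16 of 2-fold), array weights 5694 (1965 higher, 3729 lower) and an adjusted p under 0.01 810 (596 higher, 214 lower). Normexp correction gave 345 and 4 changes of 2-fold or more, and asking for signal above background on all 10 arrays 16 falls of 2-fold. Omitting 1 array gave 1184 to 3621 calls, 737 to 1521 higher, 446 to 2100 lower, 471 to 667 rises and 20 to 35 falls of 2-fold. With a replicate block, 56 genes were called (52 higher, 4 lower, 45 and 2 of 2-fold). Among the arrays 1 of 5 correlated best with its own number, and whether same-numbered samples are paired is not known. The quantile, intensity trend, 10-array, random slide and mean-of-probes fits kept each count within 1.5 times.

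The sign of some uncalled genes turned: Crhr1 (-0.0061 with median centring, -0.0068 with the authors' values), Crhr2 (0.26 with the slide block and slide 2, 0.11 with array weights, -0.1003 to 0.1154 over the omissions), Crhbp (-0.0844 with the slide block and slide 2, -0.0224 with array weights), Cd3e (-0.04 with the slide block and slide 2), Cldn5 (-0.0239 with median centring, -0.0247 with the authors' values, -0.0041 with the slide block and slide 2), Gad1 (0.0297) and Jak2 (0.0061) with quantile normalization, Ifnar1 (-0.0784 with median centring, -0.0791 with the authors' values, -0.0009 with normexp, -0.0071 with the slide block and slide 2, -0.0111 to 0.0446 over the omissions) and Ifngr2 (0.0495 with quantile normalization, 0.0147 with array weights, -0.0475 to 0.0371 over the omissions). Of the 173 named genes, 164 kept sign and side of the threshold with median centring and 159 with the slide block. On slide 2 alone 97 did, and with the replicate block 50. Many of these genes were named for their small p-values. Of all 2323 calls, 1188 were kept with median centring and 899 with the slide block. The random slide block kept 173, but its estimated slide correlation was -0.0567 and its calls rose to 2876, so it does not check for a slide effect. The cause of these differences was not tested. Signal over background limits genes such as Ifng, Gzmb, Tnf and Npy2r, which were measured on few control arrays, and changes of 0.5 were recovered in 37.3% of simulated cases.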

Other observations

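Genes outside the lists that the naming rule chose show further changes of these bulbs. Acod1, which makes itaconate in activated macrophages, read -7.08, -4.95, -7.07, -7.48 and -7.53 on Cre GFP arrays 1 to 5 and -0.27, -3.28, -3.04, -1.39 and -0.66 on active CRHR1 arrays 1 to 5. Every active array stood above every control, and Acod1 rose by 5.09 ± 0.65 (adjusted p = 0.00041, well above background on 1 control array). Hcar2, a receptor of hydroxybutyrate and niacin found on myeloid cells, rose by 4.30 ± 0.39 (adjusted p = 9.56e-05, above background on 2 control arrays), Ly86, a partner of the toll-like receptor relative Cd180, by 1.95 ± 0.19 (adjusted p = 0.000139), the leukocyte tetraspanin gene Cd37 by 1.08 ± 0.10 (adjusted p = 0.00011) and Fgd2, an exchange factor of myeloid cells, by 1.04 ± 0.10 (adjusted p = 0.000139). These calls were stable under the slide block, median centring and every omission of 1 array.

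Among the genes that fell, Thrb, a thyroid hormone receptor, read -1.65, -1.55, -1.75, -1.73 and -1.55 on Cre GFP arrays 1 to 5 and -2.07, -2.09, -2.06, -2.10 and -2.10 on active CRHR1 arrays 1 to 5. The groups did not overlap, and Thrb fell by 0.44 ± 0.06 (adjusted p = 0.000673). Gpr6, an orphan receptor that couples to Gs, read -0.93, -1.10, -1.11, -1.17 and -1.06 on Cre GFP arrays 1 to 5 and -1.92, -1.61, -1.63, -1.78 and -1.99 on active CRHR1 arrays 1 to 5. It fell by 0.71 ± 0.10 (adjusted p = 0.000849), and Slc24a3, a sodium-calcium exchanger of neurons, by 0.44 ± 0.06 (adjusted p = 0.000986). Ppp2r2b, a brain subunit of protein phosphatase 2A, fell by 0.40 ± 0.06 (adjusted p = 0.000848) and Lratd1 by 0.38 ± 0.06 (adjusted p = 0.00117). These calls were stable in the same sense. The vesicle fusion gene Nsf had probes that disagreed, the brighter at -0.45 and the other at 0.44. Prdm8, a transcription factor of neurons, was well above background on 0 active arrays and lay at least 1.53-fold lower there (adjusted p = 0.00639), with measured means of -5.41 ± 0.52 over the controls and -6.72 ± 0.44 over the active bulbs (SD).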
